A study of Bos taurus with 9 samples.

Results

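The regions described here were stretches of the cattle autosomes at which both H3K9ac and H3K27ac were called in rumen tissue, before as well as after butyrate. Peaks of the 4 acetylation lists (each mark in each condition) that overlapped by at least 1 bp were merged on chromosomes 1 to 29, and the members were selected on these peak positions: a merged region was kept where it overlapped a peak of all 4 lists. This left 1309 of 46982 merged acetylation regions, or 2.79% (Wilson 95% interval 2.64 to 2.94). They are called dual-acetylated regions below.

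Acetylation of lysine 9 and of lysine 27 of histone H3 are marks of active chromatin. H3K9ac is found mainly at active promoters, whereas H3K27ac is found at active promoters and at active enhancers. Trimethylation of the same lysine 9 (H3K9me3) is a mark of heterochromatin and silenced repeats, and a lysine cannot be acetylated and trimethylated at once on the same histone tail. RNA polymerase II (RNA pol II) transcribes protein-coding genes and accumulates close to their start sites. Butyrate is a volatile fatty acid made by rumen microbes, is taken up by the rumen epithelium, and inhibits histone deacetylases, the enzymes that take acetyl groups off histones.

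The study compared rumen tissue of Holstein cattle (spelled Hostein in the labels) without treatment, called control, and after 24 h of butyrate treatment. ChIP-seq, the sequencing of chromatin fragments pulled down with an antibody, was done for H3K9ac, H3K27ac, H3K9me3 and RNA pol II, which gave 8 peak lists, 1 per antibody and condition, and a 9th library was the input. The genotype, the age and the number of animals behind each library were not given in the sources used here. The samples were rumen tissue, taken as biopsies, so that a change in the cells that make up the tissue and a change of chromatin within a cell type cannot be told apart. The lists name no genes, and the labelled tissue was not checked against its markers. On chromosomes 1 to 29, the lists held 4075 H3K9ac peaks in control and 4255 after butyrate, 36963 and 32763 H3K27ac peaks, 673 and 1242 RNA pol II peaks, and 1536 and 1710 H3K9me3 peaks. With 1 library per group there was no spread between replicates, and no test between the conditions was made. Both control acetylation libraries were read on lane 1 and both butyrate ones on lane 3, so that lane and condition cannot be told apart for the acetylations, while the RNA pol II libraries shared lane 3. The H3K9me3 libraries were on lane 3 in control and lane 4 after butyrate. The lists hold positions without a height, so all values below are counts, widths and overlaps of peaks, and the depth behind each peak is unknown.

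Most merged regions did not reach the 4 lists, and most had no H3K9ac peak in either condition. Many of these also lacked H3K27ac in 1 of the conditions. H3K27ac was called in both conditions without any H3K9ac in 16016 regions (34.1%), in control alone in 14269 (30.4%) and after butyrate alone in 10028 (21.3%). Where H3K27ac was present in both conditions, H3K9ac was called in control alone in 1883 regions and after butyrate alone in 1924, each more often than in both conditions together. When H3K9ac was found in both conditions, by contrast, H3K27ac was seldom missing: 33 regions lacked it after butyrate, 19 lacked it in control and 19 lacked it in both. These 4 lists chose the regions, so the counts describe the choice and are not a result about it.

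The dual-acetylated regions contained 1401 of the control H3K9ac peaks, or 34.4% (32.9 to 35.9), and 1417 of the butyrate ones, or 33.3% (31.9 to 34.7). They contained only 3.94% of the control H3K27ac peaks and 4.48% of the butyrate ones. The peaks within them were broader than the other peaks of the same lists. The median H3K27ac peak was 564 bp wide inside and 288 bp elsewhere in control, and 554 against 296 bp after butyrate. The median H3K9ac peak was 272 bp wide inside in either condition, against 239 bp elsewhere in control and 237 bp after butyrate. A wide region has more room for a peak of every list, and the part of this in the peak widths was not tested.

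The regions were short, from 225 to 2898 bp, with a median of 719 bp and quartiles of 528 and 978 bp. Of the 1309, 280 were at most 500 bp wide, 720 were above 500 and up to 1000 bp, 291 were above 1000 and up to 2000 bp, and 18 were wider. Their widths therefore fell mostly within a few nucleosomes' length. The medians of steady H3K27ac regions, meaning those with H3K27ac in both conditions, were 570 bp with H3K9ac in control only, 574 bp with H3K9ac after butyrate only, and 427 bp with no H3K9ac. Together the dual-acetylated regions covered 1.05 Mb, and 966 of them (73.8%) were built from exactly 1 peak of each list.

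Within a region, H3K9ac sat inside H3K27ac. A median of 283 bp lay under control H3K9ac (quartiles 228 and 377) and 286 bp under butyrate H3K9ac (228 and 373), which was 43.3 and 43.2% of the region. H3K27ac covered a median of 625 bp in control (455 to 860) and 623 bp after butyrate (442 to 865), or 93.9 and 92.5% of the region. Of all H3K9ac base pairs in these regions, 98.3% lay under H3K27ac of either condition, whereas 53.3% of the H3K27ac base pairs lay under H3K9ac. Both ends of the region carried H3K27ac without H3K9ac in 998 regions (76.2%, 73.9 to 78.5), 1 end did in 288 (22.0%), and H3K9ac reached both ends in 23 (1.76%). The arrangement was thus a block of H3K27ac with a narrower block of H3K9ac within it. This is a description only, as the same lists chose the regions. H3K9ac peaks were short throughout, with list medians of 247 bp in control and 246 bp after butyrate. The part of peak width in the arrangement was not tested.

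**Figure D1:**
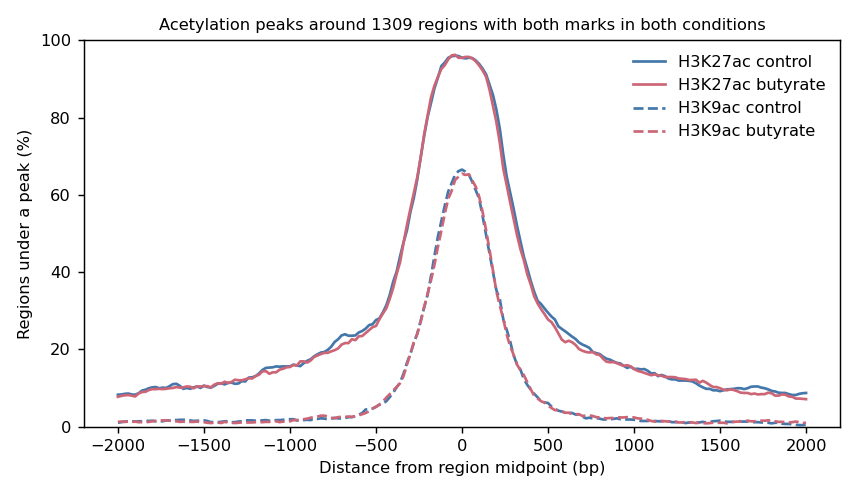
Share of the 1309 dual-acetylated regions that lie under a peak of each acetylation list (y axis, %) against the distance from the midpoint of the region (x axis, bp). Solid lines are H3K27ac and dashed lines H3K9ac, blue is control and red is butyrate; H3K27ac is at 95.5% at the midpoint in both conditions, H3K9ac at 66.5 and 65.5%, and the H3K9ac lines fall off closer to the midpoint.

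At the midpoint, 95.5% of the regions lay under an H3K27ac peak in either condition, while 66.5% lay under an H3K9ac peak in control and 65.5% after butyrate. At 200 bp to the right the values were 82.0 and 78.8% for H3K27ac and 35.3 and 35.0% for H3K9ac. At 1000 bp they were 14.9 and 15.0% for H3K27ac and 1.76 and 2.37% for H3K9ac. The curves of the 2 conditions almost coincided in this plot of acetylation around the midpoint. Only the regions above 2000 bp, 18 of 1309 (1.38%), reach 1000 bp from their midpoint. Most of the remaining H3K27ac there thus belonged to other regions, whose spacing is given below.

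A base under all 4 lists at once was present in 1204 regions (92.0%, 90.4 to 93.3). The shared stretch had a median length of 208 bp over all 1309 regions (quartiles 160 and 261), or 30.3% of the region. In the other 105 regions (8.02%) the 4 lists met only through the merging. In 88 of these the control and butyrate H3K9ac peaks did not share a base, whereas H3K27ac failed to do so in 1. Their median width was 960 bp against 698 bp for the regions with a shared base, and their H3K9ac midpoints lay a median of 422 bp apart between the conditions, against 53.5 bp. A small set of the regions therefore had H3K9ac in both conditions but at different places within one H3K27ac block.

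The length of H3K9ac changed less than that of H3K27ac with the width of the region, up to 2000 bp. In regions up to 500 bp the median H3K9ac length was 248 bp in control and 250 bp after butyrate, and in regions above 1000 and up to 2000 bp it was 340 and 330 bp. Over the same classes the median H3K27ac length went from 372 to 1112 bp in control and from 374 to 1103 bp after butyrate. The ratio of H3K9ac to H3K27ac base pairs accordingly fell from a median of 0.710 to 0.322 in control and from 0.738 to 0.312 after butyrate. More than 1 H3K9ac peak was found in none of the regions up to 500 bp, and in 19.6% (control) and 22.0% (butyrate) of those above 1000 and up to 2000 bp. The 18 regions above 2000 bp differed in that the median H3K9ac length was 338 bp in control and 606 bp after butyrate, with more than 1 peak in 33.3 and 61.1%. As region width is set mostly by H3K27ac, the ratio and the width share a measurement.

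The rule has a sharp edge, but few regions lay close to it. As a merged region contains its peaks whole, closeness to the edge was measured inside by how far the peaks of a list overlapped those of the other 3. The smallest such overlap was 60 bp, of the butyrate H3K27ac peak at chromosome 1, 67612046 to 67612535. It was followed by 64 bp for butyrate H3K9ac at chromosome 16, 49331053 to 49331872, and 75 bp for control H3K27ac at chromosome 19, 11038579 to 11039604. Just outside were chromosome 12, 22001703 to 22002214, which missed a control H3K9ac peak by 33 bp, chromosome 26, 16995516 to 16996094, which missed a butyrate H3K9ac peak by 38 bp, and chromosome 5, 103858642 to 103859569, which missed one by 60 bp. Of 3859 regions that met 3 of the lists, 13 had a peak of the missing list within 100 bp and 407 within 1 kb. All positions are those of the lists, on the UMD3.1 build of the cattle genome that the labels name, and the genes at these positions were not analysed here.

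The next comparison asked how far the acetylated length of these regions differed after butyrate. Summed over the regions, H3K9ac spanned 0.428 Mb in control against 0.426 Mb with butyrate, a log2 ratio (butyrate over control) of -0.005. H3K27ac spanned 0.932 and 0.921 Mb, a log2 ratio of -0.017. The total acetylated length was therefore nearly equal in the 2 libraries of each mark. Since all 1309 regions were required to carry both marks in both conditions, a complete loss or gain could not occur among them.

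Single regions differed more than the sums. The log2 ratio of H3K9ac had a median of 0.00 with quartiles of -0.32 and 0.34, and it was above 0 in 638 regions, below 0 in 647 and equal in 24. H3K9ac was more than 1.5-fold longer after butyrate in 191 regions (14.6%, against 14.3% of all merged regions with H3K9ac in both conditions) and more than 1.5-fold shorter in 188 (14.4%, against 14.1%). Nearly all of those background regions are dual-acetylated regions themselves, so the shares had to be close. The log2 ratio of H3K27ac had a median of -0.01 with quartiles of -0.21 and 0.16, with 619 regions above 0 and 668 below. H3K27ac was more than 1.5-fold longer in 80 regions (6.11%, against 11.2% of all merged regions with H3K27ac in both conditions) and more than 1.5-fold shorter in 103 (7.87%, against 13.2%). Their H3K27ac lengths thus passed 1.5-fold less often than in the background, in either direction. The background regions were narrower, with mostly shorter peaks, and the rule used these lists, so nothing is read from the difference.

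**Figure D2:**
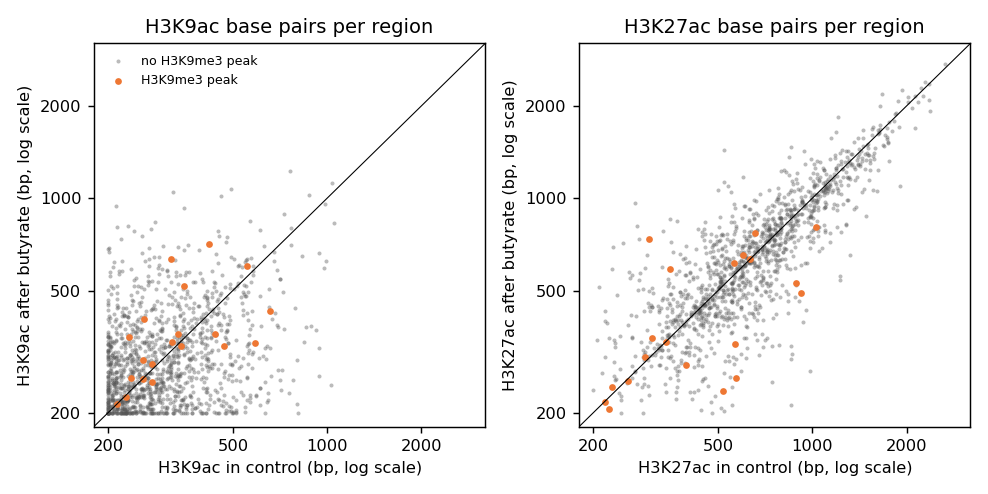
Base pairs under H3K9ac (left) and H3K27ac (right) in each of the 1309 dual-acetylated regions, in control (x axis, bp, log scale) and after butyrate (y axis, bp, log scale). Each point is 1 region, orange points are the 20 regions with an H3K9me3 peak, and the line marks equal length; H3K27ac points lie along the line (Spearman's rho 0.81), and H3K9ac points scatter around it (0.27).

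The lengths of the marks in control and after butyrate were related more closely for H3K27ac than for H3K9ac. Across the 1309 regions, Pearson's r of the log2 lengths was 0.82 for H3K27ac and 0.31 for H3K9ac, and Spearman's rho was 0.81 and 0.27. These are descriptions across regions that share the same libraries, and H3K27ac also had the wider range of lengths. The log2 ratios of the 2 marks were not related to each other (r = 0.01, rho = 0.02 across the 1309 regions). Both marks were more than 1.5-fold longer in 11 regions and more than 1.5-fold shorter in 13, they passed 1.5-fold in opposite directions in 29, and neither passed it in 800 (61.1%). The 11 made up a share of the 80 with longer H3K27ac much like that of longer H3K9ac among all 1309 (14.6%), so that the length ratio of one mark told little of the other's.

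The regions with the largest and smallest H3K27ac ratios were named by rule. At chromosome 9, 73542254 to 73543228, H3K27ac covered 271 bp in control and 964 bp after butyrate (log2 ratio 1.83), while H3K9ac covered 292 and 217 bp. The next were on chromosome 22, 57543475 to 57544168 (1.59), chromosome 11, 99789145 to 99789954 (1.55), chromosome 24, 43638390 to 43639105 (1.52), and chromosome 22, 44824761 to 44826193 (1.46). Over these 5 regions the H3K9ac log2 ratios ran from -1.01 to 0.14, and none had an RNA pol II or H3K9me3 peak. At the other end, H3K27ac covered 856 bp in control and 212 bp after butyrate at chromosome 19, 62503762 to 62504617 (log2 ratio -2.01), where H3K9ac covered 219 and 269 bp. It was followed by chromosome 23, 15845402 to 15846381 (-1.84), chromosome 19, 43912900 to 43913642 (-1.57), chromosome 2, 125394366 to 125395218 (-1.52), and chromosome 19, 45695070 to 45695931 (-1.47). Of these 5, the region on chromosome 2 had a control RNA pol II peak of 298 bp and no butyrate one, and the other 4 had neither. In all 10 regions the shorter H3K27ac block lay between 212 and 522 bp and was still called.

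RNA pol II was not used to choose the regions. It was called in 57 of the 1309 in control (4.35%, 3.38 to 5.60), against 0.602% of all merged acetylation regions, and in 87 after butyrate (6.65%, 5.42 to 8.13), against 1.03%. A peak of either condition was found in 123 regions (9.40%, 7.93 to 11.1), against 1.47%, and a peak of both in 21 (1.60%, 1.05 to 2.44), against 0.162%. Peaks of control alone were found in 36 (against 0.441%) and peaks of butyrate alone in 66 (against 0.868%). RNA pol II was thus called several times more often at dual-acetylated regions than at acetylation regions in general, and yet more than 9 in 10 of them had no RNA pol II peak. Regions are not replicates of a condition, so the intervals cover counting error only and no test was made.

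Steady H3K27ac regions with H3K9ac in 1 condition lay between the dual-acetylated regions and those with none. With H3K9ac in control only, 1.54% (1.07 to 2.20) had RNA pol II in control and 3.51% (2.76 to 4.43) after butyrate. With H3K9ac after butyrate only, the shares were 1.30% (0.882 to 1.91) and 2.75% (2.11 to 3.59). With no H3K9ac, they were 0.593% (0.486 to 0.725) and 0.993% (0.851 to 1.16). The intervals of the dual-acetylated regions overlapped none of these. Butyrate RNA pol II was at a similar share whether H3K9ac was called in control only or after butyrate only, and these 2 intervals overlapped.

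**Figure D3:**
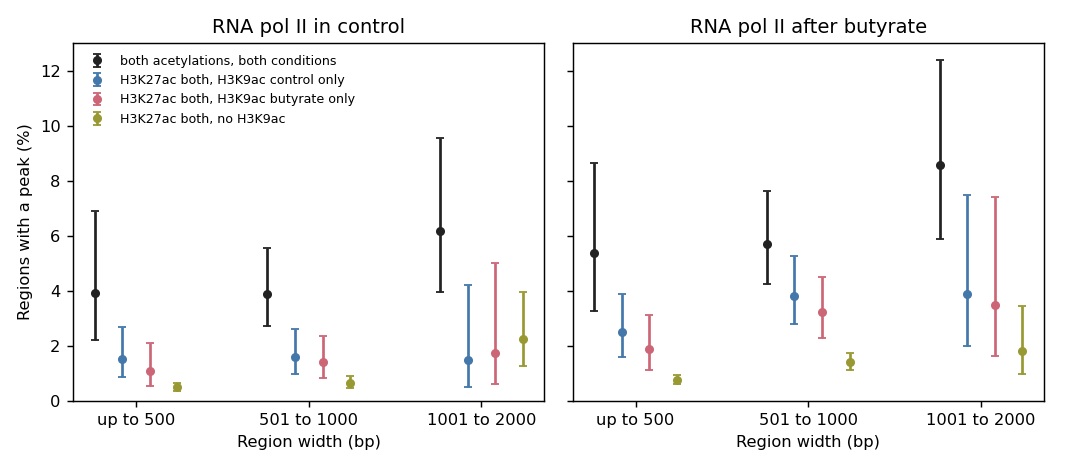
Share of regions with an RNA pol II peak (y axis, %) in control (left) and after butyrate (right), by region width in 3 classes (x axis, bp). Points are shares, bars are Wilson 95% intervals, and colours are the 4 kinds of steady H3K27ac region; in each of the 3 classes the dual-acetylated regions (black) lie highest, and regions above 2000 bp are not drawn.

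Dual-acetylated regions were wider, and a wide region can meet a peak more easily, so the shares were also taken within classes of width. In control, RNA pol II was found in 3.93% (2.21 to 6.90) of dual-acetylated regions up to 500 bp, against 0.481% (0.364 to 0.635) of steady H3K27ac regions of that width with no H3K9ac. Above 500 and up to 1000 bp the shares were 3.89% (2.70 to 5.56) and 0.656%, and above 1000 and up to 2000 bp they were 6.19% (3.95 to 9.56) and 2.23% (1.25 to 3.94). After butyrate they were 5.36 against 0.746%, 5.69 against 1.39%, and 8.59% (5.89 to 12.4) against 1.82% (0.961 to 3.43). The higher share was therefore present at each width, as the plot by width shows, with control intervals that barely separated in the class above 1000 bp. Against the regions with H3K9ac in 1 condition, the dual-acetylated regions also had the higher share in each of the 3 classes, but most of those intervals overlapped, and after butyrate they did so in every class with at least 1 of the 2 kinds. Among the 18 regions above 2000 bp, 6 (33.3%) had RNA pol II after butyrate and 0 in control, where a count of 0 of 18 allows a share of up to 16.7% (3 counts of the total). Of the regions above 2000 bp with H3K9ac in control only or after butyrate only, 4 of 8 and 1 of 8 had RNA pol II after butyrate and 0 had it in control, so wide regions of those kinds also had it after butyrate alone.

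The RNA pol II peaks lay inside the regions rather than at their edges. Of 673 control RNA pol II peaks, 58 (8.62%) met a dual-acetylated region, as did 89 of 1242 (7.17%) after butyrate. In both conditions the median such peak had 100% of its length inside the region, with its midpoint 142 bp from that of the region. These peaks were a median of 252 bp wide in control and 238 bp after butyrate, against 218 and 212 bp for the other RNA pol II peaks. Of the RNA pol II peaks on any acetylation region, 20.6% in control and 18.5% after butyrate were on a dual-acetylated one. The dual-acetylated regions were 2.79% of the acetylation regions by number, and 1.05 of their 18.3 Mb by length. Per Mb of region, 54.1 dual-acetylated regions had RNA pol II in control and 82.6 after butyrate, against 15.5 and 26.4 for all merged acetylation regions, so that the excess was smaller by length than by number.

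**Figure D4:**
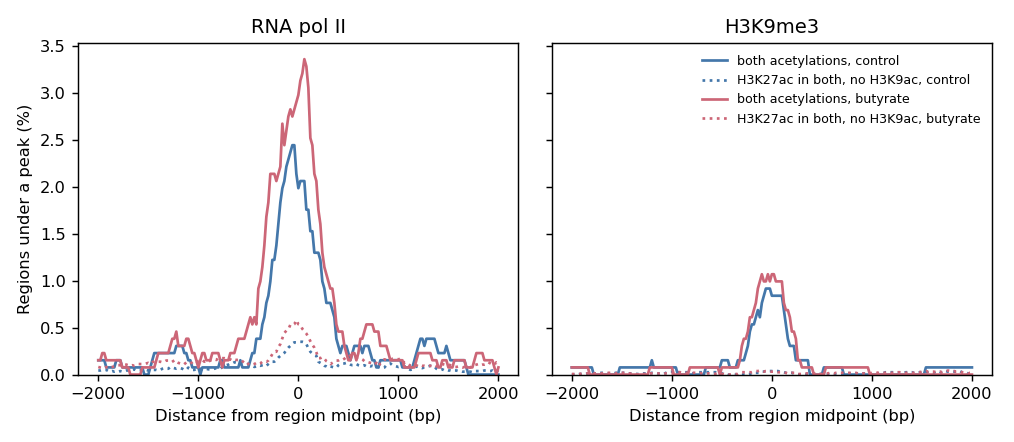
Share of regions under an RNA pol II peak (left) or an H3K9me3 peak (right) (y axis, %) against the distance from the region midpoint (x axis, bp), in control (blue) and after butyrate (red). Solid lines are the 1309 dual-acetylated regions and dotted lines the 16016 steady H3K27ac regions with no H3K9ac; the solid RNA pol II lines reach 2.44 and 3.36% near the midpoint, and the solid H3K9me3 lines 0.917 and 1.07%.

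In the profile around the midpoint, RNA pol II reached its highest share 40 bp to the left of the midpoint in control (2.44%) and 60 bp to its right after butyrate (3.36%). At 400 bp to the right it was down to 0.306 and 0.458%. The steady H3K27ac regions with no H3K9ac reached 0.350 and 0.581%. Orientation relative to a gene was not analysed here, so left and right have no meaning beyond the numbering of the chromosome.

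More of the dual-acetylated regions had RNA pol II after butyrate than in control, but the RNA pol II list as a whole was also longer. The number of regions with a peak was 57 in control and 87 after butyrate, a ratio of 1.53 (log2 0.61), while the other acetylation regions gave 1.76 (0.81), and all peaks on chromosomes 1 to 29 gave 1.85 (0.88). The ratio at dual-acetylated regions was therefore no larger than that of the list, and the part of sequencing depth in it was not tested. Of the 57 regions with control RNA pol II, 21 (36.8%, 25.5 to 49.8) also had it after butyrate, so that most regions with RNA pol II carried it in 1 condition only.

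The widest regions show how the marks were laid out. The widest, chromosome 23, 7235713 to 7238610 (2898 bp), had 2655 bp under control H3K27ac and 2748 bp under butyrate H3K27ac, but only 425 and 350 bp under H3K9ac, and it carried a butyrate RNA pol II peak of 216 bp. Next were chromosome 5, 117083244 to 117085930 (2687 bp), chromosome 22, 51993465 to 51996082 (2618 bp), chromosome 19, 57292143 to 57294701 (2559 bp), and chromosome 22, 43813282 to 43815715 (2434 bp). The 10 widest also included 2 regions of 2409 bp, at chromosome 3, 33619426 to 33621834, and chromosome 18, 43924395 to 43926803. The last 3 were chromosome 10, 85549547 to 85551909 (2363 bp), chromosome 22, 51970239 to 51972598 (2360 bp), and chromosome 4, 25095560 to 25097811 (2252 bp). Butyrate RNA pol II was called in 5 of these 10, those at chromosome 23, chromosome 19 and chromosome 4 and the pair on chromosome 22 that begin at 51970239 and 51993465. None of the 10 had control RNA pol II or H3K9me3. Their H3K27ac log2 ratios stayed between -0.30 and 0.39, while those of H3K9ac ran from -1.35 to 1.57, and in 3 of the 10 the 4 lists shared no base.

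Both of that pair on chromosome 22, which lie close together, carried a butyrate RNA pol II peak. In the region beginning at 51970239, H3K9ac covered 200 bp in control and 367 bp after butyrate, and in the one beginning at 51993465 it covered 219 and 362 bp. H3K27ac was shorter after butyrate in both, with 2177 and 2053 bp in the former and 2377 and 1927 bp in the other.

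RNA pol II in both conditions was found at 21 regions. The widest was chromosome 7, 47400601 to 47402350 (1750 bp), with RNA pol II peaks of 207 bp in control and 289 bp after butyrate, and with H3K9ac peaks of 215 and 315 bp. It was followed by chromosome 19, 43923898 to 43925037 (1140 bp), where H3K9ac covered 458 bp in control and 1017 bp after butyrate, and chromosome 3, 20228878 to 20230009 (1132 bp), where it covered 498 and 266 bp. At chromosome 29, 49858321 to 49859416 (1096 bp), RNA pol II had 2 control peaks of 549 bp in all and a butyrate peak of 384 bp. The others of the 10 widest were chromosome 10, 9300114 to 9301175 (1062 bp), chromosome 18, 10294937 to 10295938 (1002 bp), chromosome 18, 55992866 to 55993687 (822 bp), chromosome 29, 44278730 to 44279519 (790 bp), chromosome 12, 20973538 to 20974277 (740 bp), and chromosome 18, 51036837 to 51037543 (707 bp). The pair at 55992866 and 51036837 on chromosome 18 also had H3K9me3, and the other 8 did not.

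H3K9me3 was likewise not used by the rule. It was called in 12 dual-acetylated regions in control (0.917%, 0.525 to 1.60), against 0.215% of all merged acetylation regions, and in 18 after butyrate (1.38%, 0.872 to 2.16), against 0.221%. A peak of either condition was present in 20 (1.53%, 0.991 to 2.35), against 0.313%, and a peak of both in 10 (0.764%), against 0.123%. Among steady H3K27ac regions with no H3K9ac the share with a peak of either condition was 0.0749% (0.0429 to 0.131), and among those with H3K9ac in control only or after butyrate only it was 0.478 and 0.468%. H3K9me3 was rare at dual-acetylated regions. It was still more frequent there than over all merged acetylation regions and than at the other kinds of steady H3K27ac region. Regions without steady H3K27ac were not taken separately. As a share of its own list, the overlap was small, with 13 of 1536 control peaks (0.846%) and 18 of 1710 butyrate peaks (1.05%).

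Most of the regions with H3K9me3 also had RNA pol II, and the share with H3K9me3 was higher at narrower regions. Of the 20 regions with H3K9me3, 16 also had RNA pol II of some condition, which was 1.22% of the 1309 (0.754 to 1.98), against 0.189% of all merged acetylation regions, and 12 had it in both conditions. Of the 21 regions with RNA pol II in both conditions, these 12 had H3K9me3, and of the 1186 regions without RNA pol II, 4 did. H3K9me3 was present at 8 of the 280 regions up to 500 bp (2.86%), 11 of the 720 above 500 and up to 1000 bp (1.53%), 1 of the 291 above 1000 and up to 2000 bp (0.344%), and 0 of the 18 above 2000 bp. The regions with H3K9me3 had a median width of 568 bp, against 723 bp for those without. RNA pol II beside H3K9me3 was not particular to dual-acetylated regions. Over all merged acetylation regions, 89 of the 147 with H3K9me3 also had RNA pol II of some condition. Among steady H3K27ac regions with H3K9me3, 6 of 9 with H3K9ac in control only had RNA pol II. The counts were 6 of 9 with H3K9ac after butyrate only and 5 of 12 with no H3K9ac.

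Among the 10 widest regions with H3K9me3, 7 had the mark after butyrate alone, and over all 20 it was called after butyrate alone in 8 (0.611% of the 1309, 0.310 to 1.20, against 0.0979% of all merged acetylation regions), in control alone in 2 (0.153%, 0.0419 to 0.555, against 0.0915%) and in both conditions in 10. The widest, chromosome 7, 13546932 to 13547960 (1029 bp), had a butyrate H3K9me3 peak of 212 bp and no RNA pol II. Chromosome 21, 14564652 to 14565571 (920 bp), had butyrate peaks of H3K9me3 (200 bp) and RNA pol II (213 bp). Chromosome 23, 9284281 to 9285165 (885 bp), chromosome 3, 113898862 to 113899653 (792 bp), and chromosome 9, 96702531 to 96703192 (662 bp), had butyrate H3K9me3 peaks of 247, 444 and 200 bp and no RNA pol II. At chromosome 18, 55992866 to 55993687, and chromosome 17, 53142586 to 53143254 (669 bp), the butyrate H3K9me3 peaks were 453 and 303 bp wide, beside RNA pol II of both conditions. The other 3, at chromosome 18, 51036837 to 51037543, chromosome 3, 17429202 to 17429899, and chromosome 17, 34219437 to 34220006, had peaks of all 8 lists.

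All 4 lists of RNA pol II and H3K9me3 had a peak at 0.0681% of all merged acetylation regions, whichever acetylation lists those regions met. They had one at 9 dual-acetylated regions (0.688%, 0.362 to 1.30), which thus carried peaks of all 8 lists. This set was singled out after its values were seen. The regions were 225 to 707 bp wide with a median of 404 bp, and the 4 acetylation lists shared a median of 64.8% of their length (32.1 to 98.1), against 30.2% in regions without H3K9me3. H3K9ac was about as long as H3K27ac in them, with a median ratio of 0.951 in control and 1.04 after butyrate, against 0.492 and 0.497 in regions without H3K9me3. The 9 were also narrower, and all dual-acetylated regions up to 500 bp had median ratios of 0.710 and 0.738. The part of width in these contrasts was not tested. At chromosome 12, 78639400 to 78639657 (258 bp), H3K9ac covered 258 bp in both conditions and H3K27ac 258 and 253 bp, RNA pol II peaks met the region with widths of 269 and 307 bp, and H3K9me3 peaks with 302 and 283 bp. At chromosome 6, 5786984 to 5787208, the narrowest of all 1309 regions at 225 bp, H3K9ac covered 214 bp in both conditions and H3K27ac 225 and 206 bp. These 2 regions had nearly the same interval in all 4 acetylation lists, but others of the 9 did not. At chromosome 3, 17429202 to 17429899, where the shared part was 32.1%, H3K27ac covered 350 and 587 bp and the H3K9me3 peaks were 722 and 257 bp wide. At chromosome 17, 34219437 to 34220006, H3K27ac covered 570 and 259 bp, and H3K9me3 had 812 bp in 2 control peaks and 791 bp after butyrate. The input library was not analysed here, and its part in these overlaps was not tested.

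Because H3K9me3 and RNA pol II fell together, the RNA pol II shares were also taken without the 20 regions with H3K9me3, an alternative added after seeing the data. In the remaining 1289 regions RNA pol II was present in 43 in control (3.34%, 2.49 to 4.46) and in 73 after butyrate (5.66%, 4.53 to 7.06), against 0.562% (0.458 to 0.691) and 0.969% (0.828 to 1.13) of steady H3K27ac regions with neither H3K9ac nor H3K9me3. RNA pol II in both conditions went from 21 to 9 regions (0.698%, 0.368 to 1.32). In steady H3K27ac regions it went from 7 to 2 with H3K9ac in control only. It went from 5 to 1 with H3K9ac after butyrate only, and from 19 to 15 with no H3K9ac. At dual-acetylated regions, the share of control RNA pol II regions that also had it after butyrate went from 36.8 to 20.9% (11.4 to 35.2). Steady H3K27ac regions with no H3K9ac, also without H3K9me3, gave 15 of 90, or 16.7% (10.4 to 25.7), and the 2 intervals overlapped. The 9 dual-acetylated regions that remained were 332 to 1750 bp wide with a median of 1062 bp. They had a median H3K9ac to H3K27ac ratio of 0.386 in control, so that H3K9ac was again much shorter than H3K27ac. Dual-acetylated regions above 1000 and up to 2000 bp had a median of 0.322 in control. The 9th, which is not among the widest named above, was chromosome 5, 27594414 to 27594745 (332 bp), with RNA pol II peaks of 229 bp in control and 200 bp after butyrate.

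Along the chromosomes, dual-acetylated regions were sparse. There were 0.522 per Mb, and the median distance from one to the next was 508 kb (quartiles 121 kb and 2.02 Mb), with a longest gap of 41.2 Mb. Of 1280 gaps, 27 (2.11%) were at most 1 kb and 95 (7.42%) at most 10 kb. The closest pair lay on chromosome 10, at 21811966 to 21813360 and 21813416 to 21815058, with 55 bp between them. Merged acetylation regions of any kind, dual-acetylated ones included, were much nearer, with the next at a median of 321 bp. Such a neighbour lay within 1 kb of 884 regions (67.5%, 64.9 to 70.0), and on both sides in 217 (16.6%). The first share was 57.9% for all merged regions, and 66.8% (66.0 to 67.5) for steady H3K27ac regions with no H3K9ac, whose interval lay inside that of the dual-acetylated regions. Having a close neighbour was therefore shared with other steady H3K27ac regions.

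**Figure D5:**
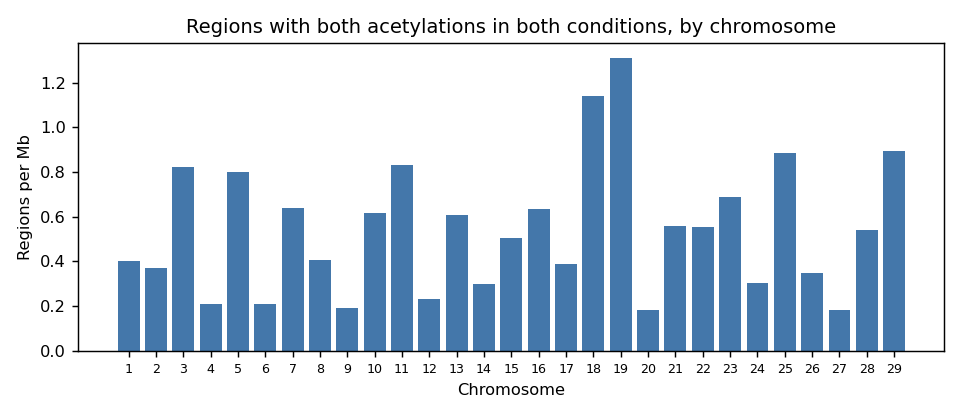
Dual-acetylated regions per Mb (y axis) on each of the 29 autosomes (x axis), with chromosome length taken up to the last peak. Bars start at 0; chromosome 19 stands highest at 1.31 per Mb and chromosome 20 lowest at 0.180.

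The density differed between chromosomes, as the bars by chromosome show. Chromosome 19 had 84 regions (1.31 per Mb) and chromosome 18 had 75 (1.14 per Mb), followed by chromosome 29 (0.893) and chromosome 25 (0.886). Chromosome 20 had 13 (0.180 per Mb) and chromosome 27 had 8 (0.182 per Mb), and the largest number, 100, was on chromosome 3. The densest chromosome had 7.28 times the density of the sparsest, against 4.69 times for all merged acetylation regions. Over the 29 chromosomes the 2 densities went together (Pearson's r = 0.92, as a description, with the same libraries behind both), so the chromosomes that were rich in acetylation were mostly those rich in dual acetylation. As a share of the merged regions, dual-acetylated ones ranged from 1.57% on chromosome 20 to 46 of 1151 (3.01 to 5.29%) on chromosome 29, while chromosome 19 was at 2.97% (2.41 to 3.67), close to the 2.79% of all autosomes.

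When each chromosome was cut into 3 equal parts, 379 of the regions lay in the part nearest position 1, 407 (31.1%) in the middle and 523 (37.3 to 42.6%) in the part farthest from it. All merged acetylation regions gave 27.9, 30.7 and 41.4%, so this lean towards the high-numbered end was that of acetylation in general. In windows of 1 Mb, 726 of 2523 (28.8%) held a dual-acetylated region, 419 of them only 1, and 33 windows with 5 or more held 209 regions (16.0%).

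The most crowded windows were on chromosome 5, 104000001 to 105000000, with 11 of its 136 merged regions, and on chromosome 19, 43000001 to 44000000, with 11 of 111. Chromosome 11 had 10 of 137 in the window 25000001 to 26000000 and 9 of 129 in the window 99000001 to 100000000, and chromosome 29 had 9 of 94 in the window 43000001 to 44000000. Each of these 5 windows had 1 dual-acetylated region with RNA pol II and 0 with H3K9me3. In the chromosome 19 window, that region was the one at 43923898 with RNA pol II in both conditions, and shortly before it lay the region at 43912900, where H3K27ac covered 743 bp in control and 251 bp after butyrate. On chromosome 11, the window from 99000001 included the region at 99789145, where H3K27ac covered 276 bp in control and 810 bp after butyrate. Within a window the H3K27ac ratios went both ways, from -0.66 to 0.79 on chromosome 5 and from -1.57 to 0.42 on chromosome 19, so that crowded regions did not share a direction.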

How the data were processed

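ChIP-seq libraries of rumen tissue, 1 per antibody and condition, were analysed as the peak lists that the authors deposited, each with 3 columns and no score. The deposited values are positions, start and end both included, from 200 bp wide upward. Per the labels and the methods of the study, reads were trimmed with Trim Galore 0.4.1, mapped with BWA to UMD3.1 (UMD3.1.1 in the methods), and peaks were called with MACS 2.1.1 against the input library. The input was not analysed here. Read depth is not in the lists, and a deeper library can yield more and wider peaks.

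Merging, overlaps and distances were computed in Python 3.11.15 with numpy 2.4.6 and scipy 1.17.1, and checked on simulated intervals with known answers. Shares carry Wilson 95% intervals, which cover counting error only. With 1 library per group no p-value was computed. Regions were named by fixed rules: the 10 widest, the 10 widest with RNA pol II in both conditions, the 10 widest with H3K9me3, the 5 largest and 5 smallest H3K27ac log2 ratios, the 5 densest windows, and 3 on each side of the selection edge. The members and lists were chosen with earlier results of these data known. Other peak width minimums, overlaps, merging distances and the addition of chromosome X were tried as alternatives. Gene annotation and sequence of the build were not used here.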

Additional observations from a re-analysis of the deposited data

Results flagged for a closer look

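Chromosome X was outside the comparisons above. It held 15 regions with both acetylations in both conditions, out of 795 merged acetylation regions (1.89%, Wilson 95% interval 1.15 to 3.09). They were 324 to 1005 bp wide with a median of 721 bp. RNA pol II of either condition was called in 7 of them (46.7%, 24.8 to 69.9), and 5 had peaks of all 8 lists (33.3%, 15.2 to 58.3), against 9 of 1309 on chromosomes 1 to 29. They drew attention because they carried peaks in data that the comparisons did not use. The shares over all 795 merged regions of X were not taken, so these 15 are not set against X in general. Chromosomes 1 to 29 held 673 of 863 control RNA pol II peaks and 1536 of 2242 control H3K9me3 peaks, but 4075 of 4115 control H3K9ac peaks. After butyrate they held 1242 of 1492, 1710 of 2430 and 4255 of 4340. The peaks outside chromosomes 1 to 29 were not counted for X alone. The difference between X and the autosomes was not tested.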

How the results depend on the processing

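Of 7 counts of regions under alternatives, 6 were within 1.5-fold of the reported 1309. Of 61 other values, 51 stayed within the interval of the reported value and 10 left it. The log2 ratios of acetylated length, the only values with a direction, kept their sign. They lay near 0 at every setting, so no direction is read from them. Their intervals included 0 at every setting, but were built from the numbers of peaks and do not measure the error of the lengths. With only peaks at or above the median width of their list, the number of regions was 557, their share of merged regions 2.31%, their median width 792 bp and their median distance 1417348 bp. With a base shared by all 4 lists required, the share was 2.56% and the median width 698 bp. With peaks up to 500 bp apart merged, the share was 4.20% and the median width 1244 bp. With only peaks wider than 200 bp, RNA pol II after butyrate was at 5.22% and the median distance was 611421 bp. With the H3K9me3 regions left out, chosen after seeing the data, RNA pol II in control was at 3.34%. Settings on the acetylation peaks and their merging change the regions themselves by construction. The minimum peak widths were applied to all 8 lists, so they also took out RNA pol II peaks. How much of the change to 5.22% came from either was not tested. Of the 20 regions with H3K9me3, 14 had RNA pol II in control, so leaving them out lowers that share by construction.

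No paired analysis was possible because there was 1 library to a group. Without replicates, differences between conditions have no error beyond counting, and the lists keep no peak height or depth, so that a peak missing from a list is not shown to be absent from the tissue.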
